A study of Mus musculus with 10 samples.

Results

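The 500 regions with the densest input reads were the places where nucleosomal DNA sequenced without any antibody was most abundant per kilobase (kb). They were taken from 58242 regions on the 19 autosomes, made by joining all islands that shared at least 1 bp over 8 deposited lists. An island is a stretch of the genome in which the peak caller SICER found more reads after chromatin immunoprecipitation (ChIP) than in input. The comparison is made after scaling the libraries to each other, so the raw ChIP reads of an island can be fewer than its input reads. For each list that called a region, the input reads of its islands there were divided by their length, the highest list counted, and the 500 highest regions were kept, 0.858% of all. The members were thus chosen by their input reads, and everything computed from them, the fold over input and the calls included, is given as a description with no test.

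The lists came from testis cells of mice of the strain Oncins France 1, fractionated into spermatocytes, the germ cells that undergo meiosis, and round spermatids, their haploid products. In each of the 2 stages, 1 library was made for each of 4 marks on the tail of histone H4: acetylation (ac) or butyrylation (bu) of lysine 5 (K5) or lysine 8 (K8). Each stage also had 1 input library, which served all 4 of its lists. No genotype or treatment differed between groups, and since each group had 1 library, there was no replicate spread with which to compare any difference. Whether an input or ChIP library came from 1 mouse or from pooled mice was not given in the sources used here, and the purity of the cell fractions cannot be checked from island lists.

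Acetyl and butyryl groups neutralise the positive charge of the histone tail and are found at active promoters. The butyryl group has the longer chain, and 1 lysine carries either one or the other. Input is sequenced to show how many reads a place yields before enrichment. As background, DNA present in many copies but written only a few times in a genome assembly, such as satellite repeats beside the centromere, ribosomal DNA and recently multiplied gene families, can collect the reads of all its copies, in input and ChIP alike. Whether the regions described here hold such DNA was not tested, since no sequence or gene annotation of the files' genome build (mm9) was used. All positions are mm9, counted from 1, and regions are named by position only. Intervals are 95%. Those of a fold or a density cover counting error only, and those of a median reflect the spread between regions.

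The lists held 28031 to 44291 islands and 4768412 to 9230541 ChIP reads within them, with 1715667 to 3416108 input reads in the same islands. The lists of a stage used the same input reads: 9983 island positions occurred in more than 1 list of a stage, and 0 of them had unequal input counts. Within a list, 1 constant related the deposited fold to ChIP reads divided by input reads, taken as the median over islands with input reads. This constant, which in SICER scales the 2 libraries to each other, was 1.69, 1.19, 1.24 and 1.18 in the spermatocyte lists, in the order H4K5ac, H4K5bu, H4K8ac, H4K8bu, and 2.12, 1.47, 1.42 and 1.53 in the round spermatid lists.

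The members spanned a wide range of input density. The highest had 1114 input reads per kb, the median member 43.2 and the lowest 33.3, and the median of all other regions was 18.1. Of the members, 193 had at least 50 input reads per kb, 90 at least 100 and 25 at least 200. The lower end of the ranking was flat. The last 5 members had 33.5, 33.4, 33.4, 33.3 and 33.3 input reads per kb, the next 5 regions had 33.3, and 13 regions in all shared the value of 33.3 at the boundary, of which 2 were taken and 11 left out by chromosome order. The highest list was one of round spermatids for 365 members and one of spermatocytes for 135, with ties between stages counted as spermatocytes. Of the 275 members called in both stages, 76% had the denser input in round spermatids. Among such regions outside the 500 this share was 81.0%.

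**Figure D1:**
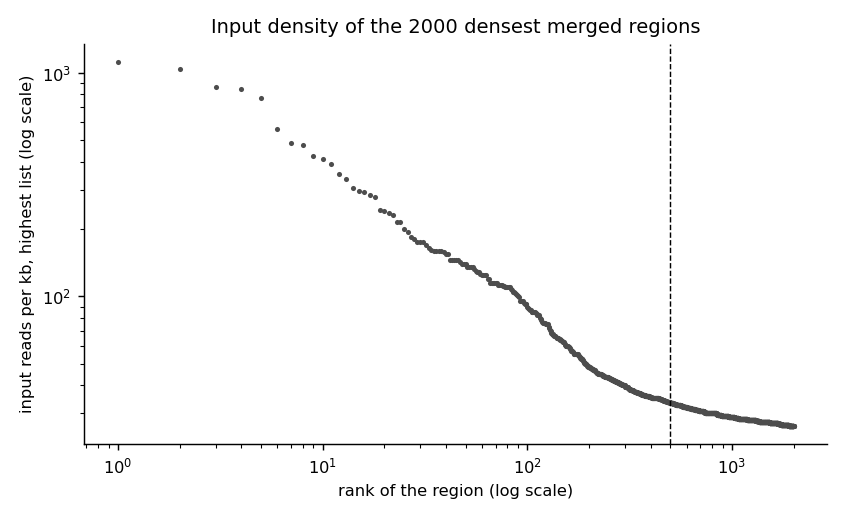
Input reads per kb in the list where they were highest (vertical axis, log scale) against rank (horizontal axis, log scale) for the 2000 densest merged regions, 1 point per region. The dashed line marks the boundary after rank 500, where the value is 33.3; density falls steeply over the first 150 ranks, to 62.5, and slowly after that.

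The densest members differed widely in length and position. The first in rank lay on chromosome 9 from 2999801 to 3038600 and began with the first island of that chromosome. Its input held 43012 reads in the spermatocyte list that called it, H4K5ac, and 42118 in each of the round spermatid lists. The ChIP reads there numbered 26967 for H4K5ac in spermatocytes and 29945, 32564, 35931 and 34996 for H4K5ac, H4K5bu, H4K8ac and H4K8bu in round spermatids. All 5 ChIP counts were thus below the input count, and the folds were above 1 only after scaling by the constants: 1.06 (1.04 to 1.07) for H4K5ac in spermatocytes and 1.505 (1.48 to 1.53), 1.14 (1.12 to 1.16), 1.21 (1.19 to 1.23) and 1.27 (1.25 to 1.29) in round spermatids.

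The second in rank, on chromosome 12 from 3109801 to 3110200, was only 400 bp long and was called in 7 lists. It had 409 input reads in spermatocytes and 415 in round spermatids, which is 1022.5 and 1037.5 input reads per kb. Its ChIP reads numbered 374 for H4K5ac, 385 for H4K8ac and 389 for H4K8bu in spermatocytes, and 384, 394, 394 and 403 for H4K5ac, H4K5bu, H4K8ac and H4K8bu in round spermatids. The 7 ChIP libraries and both inputs therefore gave nearly the same number of reads, and the highest fold, 1.96 (1.700 to 2.26) for H4K5ac in round spermatids, belonged to the list with the highest constant.

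The same held at the fourth and the fifth in rank. On chromosome 9 from 35112601 to 35113800, the H4K5ac islands of spermatocytes and the H4K5bu, H4K8ac and H4K8bu islands of round spermatids were each 800 bp long with 674 input reads. Their ChIP reads numbered 603, 624, 640 and 643. On chromosome 2 from 98502201 to 98507600, 7 lists called islands of 5400 bp, with 4153 input reads in spermatocytes and 4098 in round spermatids. ChIP reads there ran from 3472 for H4K5ac in spermatocytes to 3848 for H4K8ac in round spermatids, so the counts of all 7 libraries differed by less than their constants did. The H4K5ac fold was 1.41 (1.35 to 1.48) in spermatocytes but 1.83 (1.74 to 1.91) in round spermatids, while H4K8bu had 1.06 (1.01 to 1.11) and 1.42 (1.36 to 1.48).

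Across the members, regions with more input reads per kb also had more ChIP reads per kb. Over the members that a list called, the log density of ChIP reads and that of input reads had a Pearson correlation across regions of 0.73 to 0.95 over the 8 lists. Over all other regions it was -0.24 to -0.061. Spearman's rho was 0.52 to 0.82 for members and -0.28 to -0.089 for the others. These values are descriptions, since both densities of a region share its islands and regions are not replicates. A call also required more ChIP reads than scaled input, so the lowest ChIP density a called region can have rises with its input density. A positive correlation over a wide range of input density thus follows in part from the calls. The rule also fixed the range of input density, wide in members and at most 33.3 in the others, so the correlations of the sets cannot be compared. The correlation over members was highest for H4K8ac in round spermatids (0.95 over 299 members) and lowest for H4K5bu in spermatocytes (0.73 over 231 members). The highest density in any autosomal island was 1.11 input reads per bp and 1.01 ChIP reads per bp. Whether reads were limited to a fixed number per position before counting is not given in the sources used here and was not tested. Such a limit would cap both counts at the top ranks, and with them the ratios and folds given there.

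**Figure D2:**
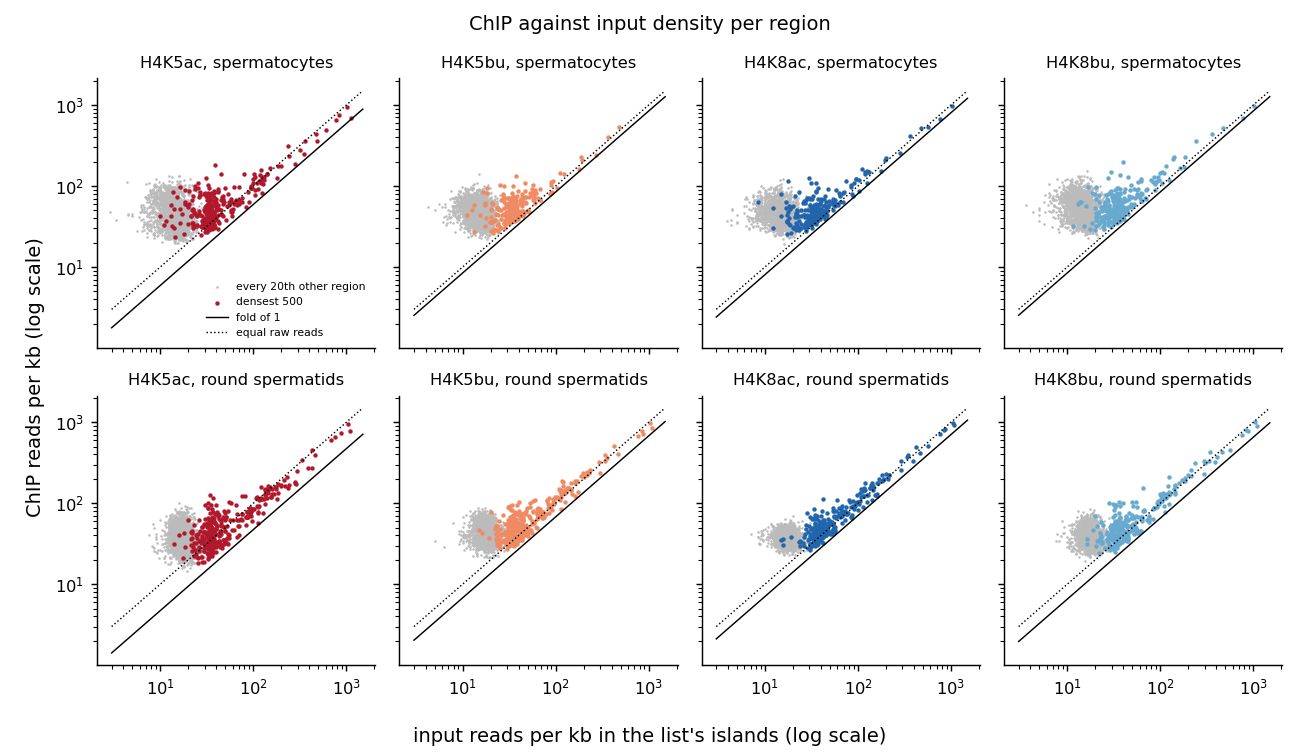
ChIP reads per kb (vertical axis) against input reads per kb (horizontal axis), both on log scales, 1 panel per list. Coloured points are members called in that list, grey points every 20th other region; the solid line is a fold of 1 after scaling and the dotted line equal raw reads. The grey cloud lies mostly above both lines, whereas the densest members lie close to the dotted line up to about 1 read per bp.

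Before scaling, the ChIP reads of the densest members were about as many as their input reads. For the members ranked 1 to 50 the median ratio of ChIP to input reads, in the order H4K5ac, H4K5bu, H4K8ac, H4K8bu, was 0.936, 1.11, 1.14 and 1.23 in the spermatocyte lists and 0.85, 1.05, 1.05 and 1.01 in those of round spermatids. For all regions outside the 500, it was 3.32, 3.397, 3.34 and 3.74 in the former and 2.16, 2.38, 2.2 and 2.29 in the latter. H4K5ac, the mark with the highest constant of each stage, was the lowest of the 4 marks by this ratio among members of rank 1 to 50 in both stages and the highest by fold, at 1.58 in spermatocytes and 1.799 in round spermatids. Over all members, 160 of 315 had fewer H4K5ac reads than input reads in round spermatids, and 68 of 281 in spermatocytes. Outside the 500 regions this held for 1.64% and 0.167% of the regions called.

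The folds of the members were low for every mark. In spermatocytes H4K5ac had a median fold of 2.13 (2.03 to 2.26), H4K5bu of 1.68 (1.58 to 1.76), H4K8ac of 1.62 (1.55 to 1.71) and H4K8bu of 1.84 (1.78 to 1.91). The medians of all other regions were 5.60, 4.03, 4.16 and 4.43. In round spermatids the medians of the members were 2.08 (1.98 to 2.18), 1.75 (1.69 to 1.83), 1.58 (1.54 to 1.63) and 1.77 (1.697 to 1.87) in the same order, and those of the others 4.57, 3.51, 3.12 and 3.51. A fold has the input in its denominator, so a low value follows in part from how the members were chosen. Between the members and the rest, the 500 regions next in rank had spermatocyte medians of 2.35 to 2.94 and round spermatid medians of 1.88 to 2.69. Within the members, the median fold for H4K5ac in spermatocytes was 1.58 at ranks 1 to 50, 1.63 at ranks 51 to 150 and 2.399 beyond rank 150, and for H4K8ac in round spermatids it was 1.48, 1.51 and 1.64.

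**Figure D3:**
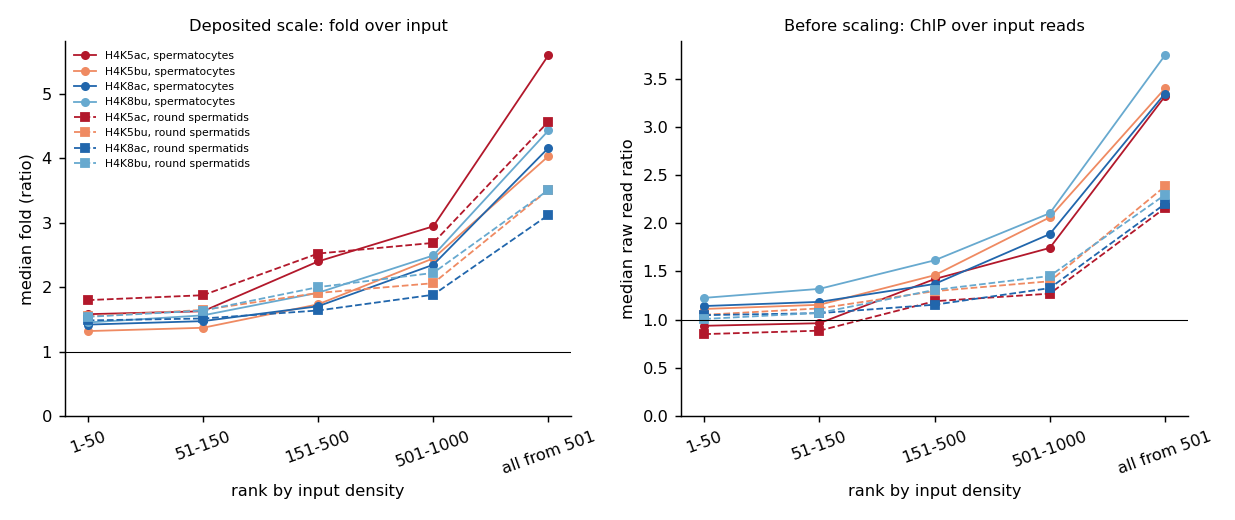
Median per list (1 line each; circles and solid lines for spermatocytes, squares and dashed lines for round spermatids) by rank in input density, as the fold over input (left, a ratio) and as the ratio of ChIP to input reads before scaling (right). At ranks 1 to 50 the raw ratios lie between 0.85 and 1.23, and beyond rank 500 between 2.16 and 3.74.

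A fold of at least 2, which was near universal elsewhere, was reached by few members for most marks. In spermatocytes 160 of 281 members reached it for H4K5ac, where 98.7% of all regions called by that list reached it. The counts were 70 of 231 (H4K5bu), 68 of 244 (H4K8ac) and 97 of 257 (H4K8bu), where the shares over all regions called were 94.6, 95.2 and 96.5%. In round spermatids it was reached by 171 of 315 members for H4K5ac (98.5% of all regions called), 120 of 339 for H4K5bu (95.0%), 44 of 299 for H4K8ac (92.2%) and 102 of 276 for H4K8bu (95.8%). By the mean of the log2 folds over the lists that called a region, 491 of the 500 members lay below the median of all other regions, and 220 below their lowest 1%, a mean fold of 1.67. Regions of both sets entered only through calls, and a low fold passes the caller's threshold more easily where reads are many. How far the calls set the lower end of the folds in the other regions was not tested. The highest mean fold of a member was 5.96 and the lowest 1.08.

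The excess of ChIP reads over scaled input, a difference rather than a ratio, set the members less far apart. It is the ChIP reads per kb minus the input reads per kb divided by the list's constant. For H4K5ac in round spermatids its median was 29.4 reads per kb in members and 28.3 in all other regions. For H4K5bu, H4K8ac and H4K8bu in round spermatids it was 25.5, 19.96 and 24.6 in members and 29.3, 25.6 and 28.1 in the others. In spermatocytes the members were lower for all 4 marks, with 29.6, 21.03, 20.1 and 25.9 reads per kb against 37.3, 36.1, 34.9 and 40.4. The median density of ChIP reads themselves was higher in members than elsewhere in each list. The medians were closest for H4K5bu in spermatocytes, at 50.9 against 48.1 reads per kb, and farthest apart for H4K5ac in round spermatids, at 50.8 against 36.7.

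The members took a larger share of the input reads than of the ChIP reads or of the length. They held 3.76 to 7.002% of the input reads inside the autosomal islands of the spermatocyte lists and 5.89 to 9.56% in round spermatids. Of the ChIP reads they held 1.39 to 2.27% in the spermatocyte lists and 2.13 to 4.31% in those of round spermatids. Of the island length they held 1.16 to 2.02% over all lists. The share was highest in the H4K8ac list of round spermatids, with 9.56% of input and 4.31% of ChIP reads. The 10 densest members alone held 2.31% of the input reads in this list and 2.31% in the H4K5ac list of spermatocytes, but 0.018% in the H4K5bu list of spermatocytes, which called 2 of them.

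Over all 500, calls in all 8 lists were nearly as frequent as over all regions, but their share depended on rank. All 8 lists called 123 members, 24.6% (20.9 to 28.6), where 26.7% of all autosomal regions were called in all 8. The share was 10% at ranks 1 to 50, 13% at ranks 51 to 150 and 30% among members beyond rank 150. Among the 500 regions next in rank it was 12%. A single list called 99 members, 19.8% (16.4 to 23.6), where 15.8% of all regions had 1 list. Members called once were short, with a median of 1000 bp, and those called in all 8 lists were long, with a median of 13400 bp. Of the 99, 34 had H4K5bu in round spermatids alone, 21 H4K8ac in round spermatids alone and 15 H4K5ac in round spermatids alone. An island of H4K8ac in round spermatids alone made up 4.2% of the members and 0.252% of all regions.

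**Figure D4:**
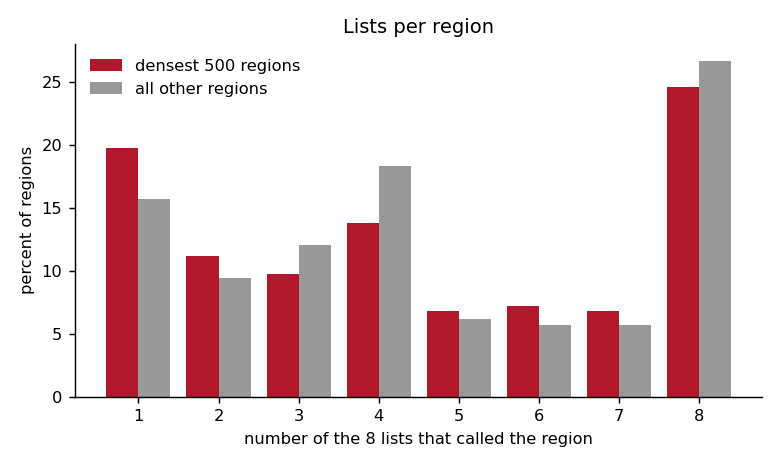
Percent of regions (vertical axis, from 0) by the number of the 8 lists that called them (horizontal axis), for the 500 densest regions (red) and all other autosomal regions (grey). Single-list regions make up 19.8% of the densest and 15.7% of the others, and regions in all 8 lists 24.6% and 26.7%.

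By stage, more members were called in round spermatids only than in spermatocytes only. Of the members 156, or 31.2% (27.2 to 35.5), were called in round spermatids only, against 22.1% of all regions, and 69, or 13.8% (10.9 to 17.1), in spermatocytes only, against 29.7%. Both stages called 275, or 55.0%, against 48.1% of all regions. The input density of regions called in both stages was itself higher in round spermatids, by a median of 0.27 (log2) over 27766 regions outside the 500. The rule compared input reads without scaling, so a region called in round spermatids could reach the boundary more easily. Ranked by spermatocyte lists alone, 41.4% of the 500 were called in spermatocytes only and, by construction, 0% in round spermatids only. How much of the difference between the stages follows from the rule was not tested. Calls describe where islands passed the threshold and are no measure of a gain or loss of a mark. Marks of 1 acyl group only were as frequent for butyrylation as for acetylation: 60 members had only butyryl islands (12.0%, against 11.0% of all regions) and 60 only acetyl islands (12.0%, against 7.55%).

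By list, the difference from all regions was uneven. In spermatocytes, 281 members were called for H4K5ac (56.2%; 68.4% of all regions), 231 for H4K5bu (46.2%; 58.2%), 244 for H4K8ac (48.8%; 54.3%) and 257 for H4K8bu (51.4%; 64.0%), all below the share of all regions. In round spermatids, the H4K5ac list called 315 (63.0%; 59.6%), the H4K5bu list 339 (67.8%; 62.9%), the H4K8ac list 299 (59.8%; 41.5%) and the H4K8bu list 276 (55.2%; 54.5%). There H4K8bu was near the share of all regions, and H4K8ac, the shortest list, showed the largest difference between members and all regions, 59.8 against 41.5%.

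At the very densest places the raw input counts of the stages were nearly equal, without scaling the input libraries to each other. At island positions found in lists of both stages, the 10 densest members had 5647 input reads in spermatocytes and 5627 in round spermatids over 5 positions, a ratio of 0.996. Of these reads, 4153 and 4098 came from 1 position, on chromosome 2 from 98502201 to 98507600. Over all members the 86 shared positions had a ratio of summed reads of 1.07, and over all other regions 4507 shared positions had one of 1.23. The deepest positions weigh most in such sums: the median ratio per position was 1.17 in members and 1.24 in the others, and at ranks 1 to 50 it was 1.17 where that of summed reads was 1.03.

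The difference between the stages in fold likewise depended on rank. Over the members of rank 1 to 50 called in both stages, the median log2 ratio of the round spermatid to the spermatocyte fold was 0.34 for H4K5ac (26 members), 0.30 for H4K5bu (8), 0.18 for H4K8ac (16) and 0.35 for H4K8bu (11). Between the stages, the constants of the lists alone differ by 0.33, 0.31, 0.19 and 0.37 (log2). Before scaling, the ratio of ChIP to input reads of these members had median changes of 0.011, -0.017, -0.0100 and -0.020 (log2), close to 0 for all 4 marks. Among members beyond rank 150 the median change in fold was -0.093, 0.060, -0.084 and 0.047, and over all regions outside the 500 it was -0.25, -0.093, -0.43 and -0.28.

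Over all 500, the fold was the higher one in round spermatids in 118 of 217 members for H4K5ac (39.8% of all regions called in both stages), 106 of 178 for H4K5bu (44.3%), 84 of 171 for H4K8ac (28.4%) and 102 of 180 for H4K8bu (37.6%). Members with a fold at least 1.5 times higher in spermatocytes were less frequent than among all regions. For H4K5ac they were 44 of 217, or 20.3%, where 35.2% of all regions called in both stages had such a difference. For H4K5bu they were 25 of 178 (14.0%; all regions 20.7%), for H4K8ac 32 of 171 (18.7%; 40.7%) and for H4K8bu 28 of 180 (15.6%; 35.6%). A fold at least 1.5 times higher in round spermatids was found for H4K5ac in 37 members (17.1%; 17.5%), for H4K5bu in 48 (27.0%; 17.9%), for H4K8ac in 15 (8.77%; 6.99%) and for H4K8bu in 26 (14.4%; 11.8%). With 1 library per group and a fold that rests on the input, neither direction was tested.

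The order of the marks within a stage was like that of the other regions. Of the 123 members called in all 8 lists, 113 had H4K5ac as the highest of the 4 folds in spermatocytes (90.2% of the other regions with 8 lists) and 103 in round spermatids (88.6%). H4K8ac was the lowest in 66 of them in spermatocytes (47.8% of the others) and in 103 in round spermatids (81.9%). The H4K5ac medians were 2.72 in spermatocytes and 2.85 in round spermatids, against 7.91 and 6.27 in other regions with all 8 lists. Their median length of 13400 bp compared with 8200 bp for the others. H4K5ac also had the highest constant of each stage, and the part of the constants in this order was not tested.

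The balance of butyryl and acetyl, the log2 ratio of the folds at 1 lysine, was nearer to 0 in members. It includes the constants of both lists, so its sign does not show which group had more reads. At K5 the constants were 1.69 for acetyl and 1.19 for butyryl in spermatocytes, and 2.12 and 1.47 in round spermatids. At K5 its median was -0.48 (-0.57 to -0.43) over 201 members in spermatocytes and -0.29 (-0.36 to -0.24) over 263 in round spermatids, against -0.62 and -0.37 in the other regions. At K8 it was 0.18 (0.14 to 0.24) over 203 members and 0.17 (0.13 to 0.24) over 231, against 0.25 and 0.32. The butyryl fold was the higher at K5 in 13 of 201 members in spermatocytes (6.47%, against 5.9% of all regions) and in 39 of 263 in round spermatids (14.8%, against 13.0%). At K8 it was the higher in 141 of 203 (69.5%, against 75.4% of all regions) and in 192 of 231 (83.1%, against 84.5%). Before scaling, the medians of the K5 lists stood in the reverse order, each over the members its own list called. In spermatocytes the median ratio of ChIP to input reads was 1.26 for H4K5ac (281 members) and 1.42 for H4K5bu (231). In round spermatids it was 0.982 (315) and 1.19 (339). These sets differ from the members called for both groups, over which the balance before scaling was not computed. At K8 butyryl had the higher median in both stages with and without scaling. The part of the constants in the balance was not tested.

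The members fell into very short and very long regions more often than the rest. Of the members 80, or 16.0%, were at most 600 bp long, against 0.358% of the other regions, and 109, or 21.8%, were longer than 10000 bp, against 10.4%. A single window of the caller's grid of 200 bp made up 18 members and 0 of the other regions. The short ones were the denser, with a median of 92.5 input reads per kb against 42.5 in the long ones. Of the 80 short members 52 were called in round spermatids only, 37 in 1 list only and 0 in all 8 lists. Over all regions of any length these shares were 22.1, 15.8 and 26.7%. Of the 109 long members 76 (69.7%) were called in all 8 lists and 4 in round spermatids only. Calls in all 8 lists made up 93.8% of the other regions over 10000 bp and 0.483% of those at most 600 bp. Some short members rest on few reads: 15 of the 500 had under 20 input reads in the list that ranked them, the fewest being 9.

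The members were unevenly spread over the autosomes. Chromosome 13 held 70, chromosome 14 held 54 and chromosome 4 held 52, which is 2.45, 1.88 and 1.44 members per 100 merged regions, where all autosomes together had 0.858. Chromosome 15 held 5, or 0.195 per 100. On chromosomes 4, 9, 11 and 18 the first island of the chromosome was part of a member.

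**Figure D5:**
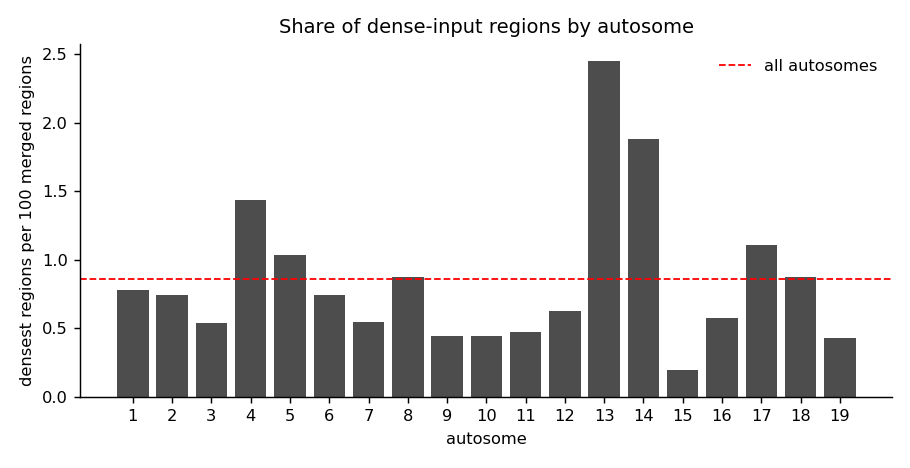
Dense-input regions per 100 merged regions (vertical axis, from 0) on each autosome (horizontal axis); the dashed line is the value over all autosomes, 0.858. Chromosomes 13, 14 and 4 stand highest, at 2.45, 1.88 and 1.44, and chromosome 15 lowest, at 0.195.

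Much of this came from a few crowded stretches. With members no more than 1 Mb apart counted as 1 stretch, 294 members (58.8%) lay in 62 stretches of 2 or more and 206 lay alone. Among the 500 regions next in rank, 45.6% lay within 1 Mb of another of that set. Only 6 stretches had 10 or more members, and they held 148, or 29.6%. Members in these 6 were long, with a median of 8800 bp, 64 of them over 10000 bp and 1 at most 600 bp. Members lying alone had a median of 1600 bp, and 55 of the 206 were at most 600 bp.

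The largest stretch lay on chromosome 13 from 65432601 to 66904400. Among its 104 merged regions, 49 were members, with a summed length of 585.4 kb. Their input density ran from 33.7 to 63.9 reads per kb. Unlike in the members as a whole, calls in spermatocytes only outnumbered those in round spermatids only, 15 against 1. Over all autosomal regions these classes made up 29.7 and 22.1%. The 15 of 49 in spermatocytes only were thus near the share of all regions, and the 1 of 49 in round spermatids only was below it. H4K5bu was called in 46 of the 49 in spermatocytes and in 28 in round spermatids (58.2 and 62.9% of all regions). H4K8bu was called in 33 and 17 (64.0 and 54.5%), H4K8ac in 37 and 21 (54.3 and 41.5%) and H4K5ac in 31 and 20 (68.4 and 59.6%). In the order H4K5ac, H4K5bu, H4K8ac, H4K8bu the spermatocyte medians of the fold were 2.35, 1.58, 1.59 and 1.91, and the round spermatid medians 2.23, 1.61, 1.58 and 1.74.

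One member of this stretch, from 66587401 to 66599600, was among those with the highest butyryl to acetyl ratio at K5 in spermatocytes. It had 424 H4K5ac and 745 H4K5bu reads over the same 514 input reads, a fold of 1.39 (1.22 to 1.59) and of 1.72 (1.54 to 1.93). It had no island in round spermatids.

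The stretch on chromosome 14 from 42327201 to 45347800 held 29 members among 133 regions, with median folds that were higher in round spermatids for 3 marks. The median H4K5ac fold was 2.16 in spermatocytes, over 24 members, and 3.01 in round spermatids, over 25. H4K5bu had 1.57 (17 members) and 2.16 (27), H4K8bu 1.65 (20) and 2.199 (22), and H4K8ac 1.86 (17) and 1.75 (22). The medians of the stages thus rest on different members, and the constants of the lists were higher in round spermatids for every mark. Within the stretch, the region from 45115601 to 45126000 had an H4K5bu fold of 1.21 in spermatocytes and 2.90 in round spermatids. This was among the largest differences of that mark in members, and the region's H4K5ac fold was 1.85 and 4.08.

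Other crowded stretches lay on chromosomes 4, 5 and 17. On chromosome 4, 26 members lay from 144344601 to 147193000 and 16 from 41744801 to 42821000, with median mean folds of 1.46 and 1.94. On chromosome 17, 15 members lay from 30589601 to 31055000, and all 15 had their highest input density in a round spermatid list. On chromosome 5 from 14871201 to 15223400, all 13 merged regions were members. Their input density was the highest of the 6 large stretches, 45.6 to 184.9 reads per kb, and their mean fold ran only from 1.09 to 1.61. In that stretch the H4K5ac median was 1.28 in spermatocytes over 5 members and 1.79 in round spermatids over 9. Of its 13 members, 7 were called in round spermatids only, where 22.1% of all regions were.

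Long members with very deep input lay on chromosomes 8 and 11. The longest, on chromosome 8 from 19913601 to 20038400, spanned 124800 bp and was called for all 4 marks in round spermatids and for none in spermatocytes. Its 15253 to 15519 input reads stood beside 9127, 12653, 12613 and 12327 ChIP reads for H4K5ac, H4K5bu, H4K8ac and H4K8bu, and the folds were 1.27 (1.23 to 1.30), 1.203 (1.17 to 1.23), 1.16 (1.13 to 1.18) and 1.21 (1.19 to 1.24). On chromosome 11 from 3018401 to 3107600, 7 of the 8 lists called islands over 23220 to 25236 input reads, and the folds ran from 1.06 (1.04 to 1.08) for H4K5bu in spermatocytes to 1.27 (1.24 to 1.30) for H4K5ac in round spermatids. These intervals do not include any error of the constants, for which the lists give none.

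Within some members the lists did not cover the same part. Of the 401 members called in 2 or more lists, 73 (18.2%) had a highest input density at least 2 times the lowest. In 47 of the 73 the fold was higher in the list with the lowest density, with a median of 2.18 there and of 1.69 in the list with the highest. A difference between marks or stages in such a region compares different stretches of DNA.

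The clearest case lay on chromosome 17 from 39979801 to 39993800. In spermatocytes the H4K5ac, H4K5bu, H4K8ac and H4K8bu islands took in the dense part, with 1460 to 1492 input reads at 191 to 243 reads per kb, and folds of 2.21 (2.07 to 2.37), 1.31 (1.22 to 1.40), 1.38 (1.29 to 1.48) and 1.75 (1.63 to 1.87). In round spermatids the H4K5ac island did so too, with 2109 input reads and a fold of 1.35 (1.26 to 1.44). The H4K5bu, H4K8ac and H4K8bu islands of round spermatids held 116, 50 and 56 input reads, at 18.7 to 19.3 reads per kb, close to the 18.1 of regions outside the 500. Their folds of 2.87 (2.29 to 3.62), 2.84 (2.00 to 4.07) and 3.79 (2.76 to 5.27) thus describe the sparser part of the region.

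The region on chromosome 2 from 27350601 to 27377400 was alike. In 7 lists its input density was 52.9 to 64.7 reads per kb and its fold 1.57 to 2.22. The H4K8ac islands of spermatocytes left out the dense part, with 157 input reads over 12.8 kb, or 12.3 per kb, and had a fold of 5.48 (4.60 to 6.56). On chromosome 10 from 57668601 to 57691400, the H4K5bu island of round spermatids alone took in the dense part, at 73.01 input reads per kb and a fold of 1.58 (1.48 to 1.69). The other 7 lists had 34.0 to 35.8 reads per kb there, and H4K5ac in round spermatids had a fold of 7.83 (6.94 to 8.85), the highest of that list among the members.

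A few members were enriched at a level usual for other regions. By list, 5 to 16 of the members called exceeded the median fold of the regions outside the 500. The member with the highest mean fold over all 8 lists lay on chromosome 2 from 116004401 to 116007200, with 254, 216, 233 and 250 reads for H4K5ac, H4K5bu, H4K8ac and H4K8bu over 35 to 43 input reads in spermatocytes. There the folds were 10.2 (7.34 to 14.5), 5.96 (4.28 to 8.48), 8.28 (5.79 to 12.2) and 6.88 (4.97 to 9.75) in that stage and, in round spermatids, 6.61 (4.60 to 9.69), 5.71 (4.01 to 8.30), 3.52 (2.22 to 5.72) and 3.47 (2.45 to 4.98). It ranked 482, through 27 input reads in an H4K8ac island of 800 bp in round spermatids, and its input density in the other 7 lists was 16.2 to 24.0 reads per kb.

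Among the members with extreme ratios between the stages, 1 example of each direction is given here. On chromosome 16 from 86820801 to 86826000 the folds were 2.66 (2.15 to 3.29), 1.97 (1.61 to 2.42), 1.66 (1.33 to 2.07) and 1.92 (1.59 to 2.32) in spermatocytes for H4K5ac, H4K5bu, H4K8ac and H4K8bu. In round spermatids they were 6.62 (5.54 to 7.95), 4.15 (3.46 to 5.00), 3.75 (3.05 to 4.64) and 4.23 (3.52 to 5.09), all higher. The input counts were of like size, 146 to 184 reads in spermatocytes and 127 to 162 in the later stage. On chromosome 13 from 101165601 to 101169200 the order was the reverse, with folds of 7.26 (5.65 to 9.43), 4.85 (3.84 to 6.18), 5.32 (4.05 to 7.08) and 6.09 (4.70 to 7.98) in spermatocytes. In round spermatids it had 3.23 (2.46 to 4.26), 2.37 (1.86 to 3.02), 1.68 (1.30 to 2.17) and 2.31 (1.81 to 2.95). The input counts there were 65 to 90 in spermatocytes and 91 to 114 in the later stage. Without replicates these differences have no test.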

How the data were processed

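Per the submitters' processing notes, the authors worked on mm9 with Bowtie2 2.2.5, SICER, CASAVA 1.8.2 and deepTools 1.5.11. For settings, the SICER version and the treatment of duplicate or multiply mapping reads, nothing is given in the sources used here. Without a header, the deposited lists hold 1 ChIP and 1 input read count per island, a deposited p-value and q-value, and a deposited fold (a ratio). The highest deposited q-value was 0.00997. The input libraries enter only through the counts in islands. Islands lie on a grid of 200 bp.

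Islands of chromosomes 1 to 19 were merged with Python 3.11.15 and pandas 2.3.3. The merging and ranking were tested on simulated data. A region's fold is its summed ChIP over summed input reads in a list, times the list's constant. Intervals of a share are exact (Clopper-Pearson), those of a fold exact conditional binomial, those of a density exact Poisson and those of a median from order statistics (scipy 1.17.1); reads without molecular identifiers are not independent, so counting intervals are too narrow.

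The members, groups and summaries were chosen with earlier results of these data known. Regions were named by rule: the densest, the longest, those with the most ChIP reads, those with the highest and lowest mean fold over all 8 lists, those with extreme ratios between stages or acyl groups with at least 100 ChIP reads in both lists, the most crowded stretches, and those beside the boundary; the text gives some of these. Ratios of ChIP to input before scaling, the excess and the evenness of coverage were added after the values were seen. No gene is named.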

Additional observations from a re-analysis of the deposited data

How the results depend on the processing

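No paired analysis was possible because each group had 1 library, and leaving out a replicate was impossible for the same reason. In each setting the values are, in order and for spermatocytes then round spermatids, the members' percent of input reads in islands, their percent of ChIP reads and their median mean fold. With the 1000 densest regions they were 6.51 and 7.06, 2.30 and 3.09, and 2.01 and 1.902. With the median list in place of the highest they were 5.35 and 5.95, 1.66 and 2.41, and 1.64 in spermatocytes. Ranked by round spermatid lists they were 5.54 and 6.36, 1.84 and 2.63, and 1.81 in spermatocytes. Ranked by spermatocyte lists they were 5.88 and 5.34, 1.87 and 2.28, and 1.82 and 1.88. With islands joined only where they shared 50% of the shorter one, the round spermatid percents were 6.104 and 2.48. With only the upper 50% of islands by fold, they were 0.975 and 1.73, 0.971 and 1.46, and 5.85 and 4.34; that set shared 30 of the 500 members, and its higher folds follow by construction from the filter.

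Calls in all 8 lists made up 18.3% with 1000 regions, 19.0% with the median list and 3.4% with the upper 50% of islands. Calls in round spermatids only made up 38.0% with the median list, 40.6% ranked by round spermatids, 52.8% with the upper 50% and, by construction, 0% ranked by spermatocytes. Calls in spermatocytes only made up 17.7% with 1000 regions, 18.6% with the median list, 41.4% ranked by spermatocytes and, by construction, 0% ranked by round spermatids. Members within 1 Mb of another made up 64.3% with 1000 regions, 54.2% ranked by spermatocytes and 40.2% with the upper 50%. Apart from these constructions, the cause was not tested. Depth limits the short members, of which the fewest input reads were 9.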

Other observations

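The sex chromosomes and mitochondrial DNA were outside the ranking, and dense input occurred there too. At or above the density of the 500th autosomal region lay 83 of 1685 merged regions of X (4.93%), 24 of 61 of Y (39.3%) and the 1 region of mitochondrial DNA. The median mean fold of these regions was 1.42 on X and 1.60 on Y, against 5.20 and 3.77 for the other regions of X and Y. On X, 57 of the 83 were called in round spermatids only, 17 in all 8 lists, and 74 lay within 1 Mb of another. The shares over all regions of X were not computed, so these counts cannot be set against the chromosome as a whole. Over all autosomal regions, 22.1% were called in round spermatids only and 26.7% in all 8 lists. The densest, on Y from 2779401 to 2797600, had 430.9 input reads per kb and was called in 7 lists, and the densest on X, from 166526601 to 166527600, had 350.0.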
